A study of Mus musculus with 4 samples.

Results

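The 3 genes described here, Krt5, Krt14 and Krt15, are the basal keratins, chosen by name out of 25071 gene symbols counted in the series. They were followed in single cells of mouse vaginal epithelium by Drop-seq, a droplet method that tags each captured transcript with a cell barcode and a unique molecular identifier (UMI). The design holds 4 libraries from C57BL/6 mice: 2 from mice with ovaries, labelled WT, and 2 from mice whose ovaries had been removed by surgery, labelled OVX, each from a pool of 5 mice. Age, the interval since surgery and the cycle stage of the WT mice were not used here. The series text speaks of pools run in duplicate, so it is not clear that the libraries of a group came from separate pools. At most, p-values between groups measure the spread between libraries, which may be technical.

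Keratins form the intermediate filaments of epithelial cells, and each filament pairs a type I with a type II chain. KRT5 is the type II chain and KRT14 the type I chain of the dividing basal layer of stratified epithelia, and KRT15 is a further type I chain of basal cells, known in skin from the hair follicle bulge. As basal cells move up they switch to other pairs, such as KRT1 with KRT10, while simple, one-layered epithelia use KRT8 with KRT18 and KRT19. The vaginal epithelium thickens and keratinises under oestrogen and thins to a few layers after ovariectomy.

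Krt5 (ENSMUSG00000061527.7) lies on the reverse strand at chr15:101707070-101712898 of GRCm38 and has 9 exons in GENCODE vM21, in the type II keratin cluster next to Krt6a and Krt71. Krt14 (ENSMUSG00000045545.8) lies at chr11:100203162-100207548 between Krt9 and Krt16, and Krt15 (ENSMUSG00000054146.8) at chr11:100131758-100135928 between Krt19 and Krt13, both on the reverse strand with 8 exons. The coding sequences of Krt14 and Krt15 were 73.3% identical over 1354 aligned bases, against 62.3% for Krt5 and Krt14 and 63.9% for Krt5 and Krt15. The following windows show the most alike aligned stretch of the type I pair and the end of the coding sequences, with capitals at the bases that differ. In the most alike stretch of 60 coding bases (chr11:100207037-100207096 in Krt14 and chr11:100135509-100135568 in Krt15), 57 bases were the same.
Krt14: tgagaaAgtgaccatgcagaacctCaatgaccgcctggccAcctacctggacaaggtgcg
Krt15: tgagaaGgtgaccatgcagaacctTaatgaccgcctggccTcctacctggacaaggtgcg
The last 60 coding bases (chr11:100203312-100203371 and chr11:100132017-100132076) lie nearer to the transcript end that Drop-seq reads. Compared base by base from the stop codon, without alignment, 18 bases were the same.
Krt14: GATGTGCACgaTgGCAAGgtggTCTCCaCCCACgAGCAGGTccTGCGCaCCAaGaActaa
Krt15: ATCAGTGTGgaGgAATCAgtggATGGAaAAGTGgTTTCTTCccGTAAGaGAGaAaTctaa

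Of the 451 words of 50 bases in the last 500 bases of each transcript, none of Krt5 or Krt15 occurred in another gene. For Krt14, 9.53% of the words also occurred in Krt16 or Krt17, so a part of its reads could be split between these genes. Krt5 overlaps the gene Gm44323 on the other strand, and whether the counting used strand is not given in the sources used here.

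Of 10000 barcodes, 8446 were kept (200 genes or more and no more than 20% mitochondrial UMIs), with 798916 to 5830417 UMIs per library. The counts of the libraries of a group differed by more than sampling noise (chi-square per degree of freedom 42.5 for WT and 7.73 for OVX). Median depth was 1597 and 799 UMIs per cell in WT libraries 1 and 2, and 435 and 738 in OVX libraries 1 and 2. The median mitochondrial share of a cell was 4.00% and 3.85% in WT and 8.97% and 9.69% in OVX, and Malat1, a nuclear RNA, accounted for 0.336% and 0.465% of WT and 2.50% and 1.81% of OVX UMIs. Any pair of libraries shared 2 to 15 cell barcodes. The summed markers of the suprabasal layer stood at 4685 and 6724 CPM (UMIs per 1000000 UMIs of the library or gate) in WT against 353 and 273 in OVX, and those of the luminal type at 415 and 394 against 1448 and 1301. The part of cell makeup, RNA quality and depth in the differences between whole libraries was not tested, and fewer cells of a type cannot be told apart there from less RNA per cell.

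Krt14, the type I partner of Krt5, was the steadiest of the 3 genes and fell in the OVX libraries. It stood at 17564 and 16652 CPM in WT libraries 1 and 2 (17108 ± 644, SD, n = 2) and at 2262 and 2206 in OVX libraries 1 and 2 (2234 ± 39.5, SD, n = 2). The 2 groups lay far apart and the libraries of a group nearly coincided. In the edgeR quasi-likelihood test over 11495 genes, the log2 fold change of Krt14 was -3.08 ± 0.47 (SE; 8.43-fold lower; Benjamini-Hochberg adjusted p = 0.0129), rank 163 by p. Of the 3 genes, Krt14 alone passed the threshold of 0.05, while of all tested genes 2.52% passed as lower, 2.58% as higher and 5.11% in either direction. Without the UMIs of mitochondrial genes and Malat1 the log2 fold change of Krt14 was -3.05 (edgeR adjusted p = 0.0138).

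Krt5, the type II chain, was lower in both OVX libraries, but the WT libraries differed so widely that the difference did not pass the test. Its level was 21650 CPM in WT library 1 and 5897 in WT library 2 (13774 ± 11140, SD, n = 2), against 2100 and 2954 in OVX libraries 1 and 2 (2527 ± 603, SD, n = 2). WT library 1 stood apart from the other 3 libraries, and the lower WT library still lay above both OVX libraries. The edgeR log2 fold change was -2.58 ± 0.68 (SE; adjusted p = 0.0772). Without WT library 1 it was -1.31 (adjusted p = 0.0257) and without WT library 2 it was -3.29 (adjusted p = 1.2e-10), so the size moved with the WT library kept. Without OVX library 1 it was -2.31 and not called (edgeR adjusted p = 0.114), and without OVX library 2 it was -2.94 (edgeR adjusted p = 0.0328). A group left with 1 library is assumed here to vary like the other group. With DESeq2 it was -2.70 (adjusted p = 0.000399), and with no filter on low counts edgeR gave -2.77 (adjusted p = 1.9e-07). With the replicate number as a block edgeR gave -2.32 (adjusted p = 0.0419).

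Krt15, the second type I chain, lay in the other direction, with higher levels in OVX that did not pass the test. It stood at 751 and 1008 CPM in WT libraries 1 and 2 (879 ± 181, SD, n = 2) and at 2566 and 1601 in OVX libraries 1 and 2 (2083 ± 683, SD, n = 2). The groups did not overlap, but OVX library 1 lay well above OVX library 2. The edgeR log2 fold change was 1.09 ± 0.44 (SE; adjusted p = 0.218). All 3 genes had groups that did not overlap, which was also so for 50.3% of the genes tested.

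**Figure D1:**
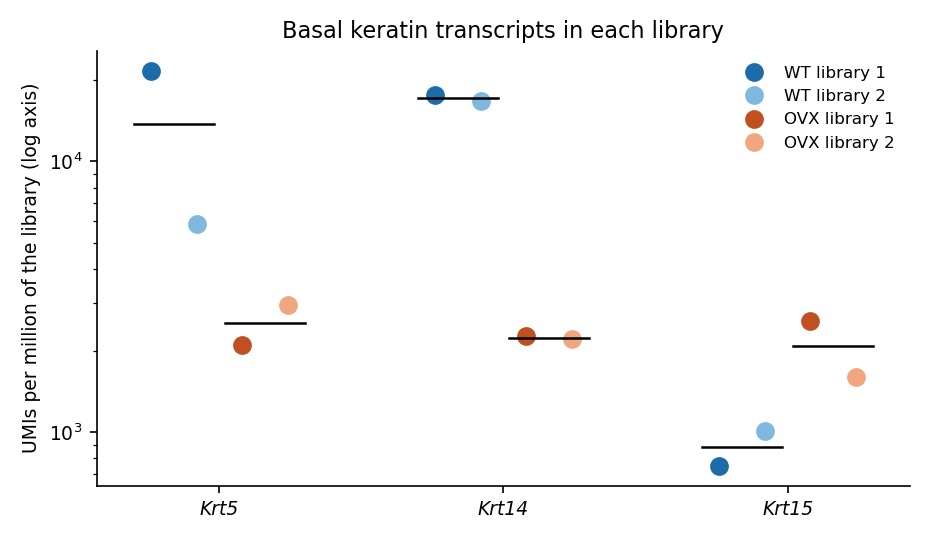
CPM of each library (log axis) for Krt5, Krt14 and Krt15, with 1 point per library and a line at the mean of each group. Krt14 fell into tight groups at 17108 and 2234, Krt5 spread from 5897 to 21650 within WT, and Krt15 was higher in both OVX libraries.

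Because 2 of the genes were lower and 1 was higher in OVX, the makeup of the basal keratin transcripts differed. Krt15 made up 1.88% and 4.28% of the UMIs of the 3 genes in WT libraries 1 and 2, and 37.0% and 23.7% in OVX libraries 1 and 2. Together the 3 genes took 4.00% and 2.36% of all UMIs in WT and 0.693% and 0.676% in OVX. Their share of the UMIs of all listed keratins ran from 75.0% in WT library 2 to 82.2% in OVX library 2 over whole libraries. By epithelial gate, described further on, it ran from 57.9% in luminal-gated cells of OVX library 1 to 92.2% in basal-gated cells of WT library 1. Drop-seq counts transcript ends, so UMIs are not scaled by length, and capture may differ between genes. Ratios between genes are therefore read across libraries only.

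The ratio of Krt5 to Krt14 UMIs was 1.23 in WT library 1 and 0.354 in WT library 2, and 0.929 and 1.34 in OVX libraries 1 and 2. The 2 WT libraries bracketed OVX library 1, so this ratio did not separate the groups. Krt5 was 3.67 times higher in WT library 1 than in WT library 2, while Krt14 differed 1.05 times. Among the 1905 genes with a mean of at least 100 CPM, 3.46% differed more between the WT libraries than Krt5 did. Desmoplakin (Dsp), which ties keratin filaments to desmosomes, also stood apart in WT library 1, with 4771 CPM against 1422 in WT library 2, and 631 and 1261 in OVX libraries 1 and 2. The hemidesmosomal linker Dst had 1332 in WT library 1, 417 in WT library 2, and 517 and 956 in OVX libraries 1 and 2. Such genes did not all share this gap. In WT libraries 1 and 2, Col17a1 had 1438 and 706 CPM and Ppl 171 and 65.8, but Plec had 153 and 174, Dsc2 332 and 331, and Jup 258 and 510. Type II per type I keratin UMIs over all listed keratins were 1.05 and 0.486 in WT and 0.403 and 0.676 in OVX.

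Each cell was placed in a gate by its marker UMIs. The gate was that of the marker list, out of 9, whose summed UMIs were highest relative to that list's mean share over libraries. At least 2 UMIs of the list were required for the epithelial layers and 5 for other cell types, and none of the 3 genes is in a gate list. The basal gate rests on 12 genes of hemidesmosomes, laminins, the basal cell surface and Trp63, and it held 1714 and 512 cells in WT libraries 1 and 2, and 339 and 802 in OVX libraries 1 and 2. All 12 basal markers had UMIs in all 4 libraries, and their sum in basal-gated cells was 5621 and 4219 CPM in WT and 5064 and 4382 in OVX. Suprabasal markers in basal-gated cells summed to 1925 and 2156 CPM in WT but to 215 and 209 in OVX. The median mitochondrial share of basal-gated cells was 4.10% and 4.14% in WT and 9.86% and 9.97% in OVX. The basal gate thus did not hold like cells in the 2 groups, and the part of this in the levels below was not tested. Suprabasal-gated cells were 593 and 924 in WT but 31 and 26 in OVX, whereas luminal-gated cells were 87 and 74 in WT and 223 and 394 in OVX. No gate could be given to 928 cells of OVX library 1, which is 59.0% of that library, nor to 30.3% of OVX library 2, 12.9% of WT library 2 and 1.48% of WT library 1.

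Within basal-gated cells Krt14 and Krt5 fell in OVX, and Krt15 did not pass the test. Krt14 stood at 16595 and 15407 CPM of the gate in WT libraries 1 and 2 and at 2822 and 2773 in OVX libraries 1 and 2, with an edgeR log2 fold change of -2.53 ± 0.50 (SE; adjusted p = 0.0157). Krt5 stood at 22289 and 6253 in WT and at 1889 and 2823 in OVX, with -2.60 ± 0.65 (SE; edgeR adjusted p = 0.0477). Krt15 stood at 905 and 1391 in WT and at 2253 and 1594 in OVX, with 0.73 ± 0.47 (SE; edgeR adjusted p = 0.472). The WT and OVX values of each gene did not overlap, which was so for 47.9% of the 7735 genes tested, and 4.03% of genes were called, 2.38% as lower and 1.65% as higher. In this gate the gap between OVX and the nearer WT library was narrow for Krt15 and wide for Krt14.

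These calls rested on few libraries. In basal-gated cells the call of Krt5 was lost on leaving out WT library 1 (-1.44, edgeR adjusted p = 0.067), OVX library 1 (adjusted p = 0.136) or OVX library 2 (adjusted p = 0.102), with every barcode (adjusted p = 0.0605) and with the replicate number as a block (edgeR adjusted p = 0.080). That of Krt14 was lost on leaving out OVX library 1 (-2.48, edgeR adjusted p = 0.0891) or OVX library 2 (-2.61, edgeR adjusted p = 0.214).

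Between pooled layers, the differences of Krt14 and Krt15 had opposite signs in the 2 groups, and that of Krt5 was small. Suprabasal, superficial and luminal gates were summed as differentiated-gated cells and set against basal-gated cells of the same library. For Krt14, WT libraries 1 and 2 had 16595 and 15407 CPM in basal-gated and 19006 and 18026 in differentiated-gated cells, and OVX libraries 1 and 2 had 2822 and 2773 against 1528 and 1473. The pooled sum was thus above the basal gate in both WT libraries and below it in both OVX libraries. The edgeR log2 difference, with library as a block, was 0.31 ± 0.06 (SE; adjusted p = 1.88e-06) in WT and -0.88 ± 0.07 (SE; adjusted p = 8.49e-32) in OVX. The call in WT was lost without WT library 2 (0.27, edgeR adjusted p = 0.0972).

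The pooled difference of Krt15 had the other sign in each group. It stood at 905 and 1391 CPM in basal-gated and at 558 and 655 in differentiated-gated cells of WT libraries 1 and 2, and at 2253 and 1594 against 2810 and 1769 in OVX libraries 1 and 2. The log2 difference was -0.77 ± 0.08 (SE; edgeR adjusted p = 1.61e-21) in WT and 0.25 ± 0.08 (SE; edgeR adjusted p = 0.047) in OVX. The OVX call was lost under each of the 18 alternatives run, with values from -0.24 to 0.35. Krt5 differed by 0.03 ± 0.06 (SE; edgeR adjusted p = 0.791) in WT and by 0.22 ± 0.07 (SE; edgeR adjusted p = 0.0372) in OVX, the latter lost under 14 of 18 alternatives. Of all 9096 genes tested, 15.7% passed between these gates in WT (7.66% higher and 7.99% lower in differentiated-gated cells) and 6.41% in OVX (4.24% higher and 2.17% lower).

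The difference between the 2 group effects was itself tested. OVX minus WT was -1.19 ± 0.09 (SE; edgeR adjusted p = 1.06e-34) for Krt14 and 1.02 ± 0.11 (SE; edgeR adjusted p = 2.78e-16) for Krt15, and 0.18 ± 0.09 (SE; edgeR adjusted p = 0.438) for Krt5, while 2.47% of genes passed (1.41% positive and 1.07% negative). Variation between libraries that is common to both gates of a library does not enter these p-values. The sums leave few residual degrees of freedom, and the fit borrows dispersion across genes. P-values this small therefore do not measure the spread of 2 libraries per group. With DESeq2 the difference was -1.19 for Krt14 (adjusted p = 9.92e-15) and 1.04 for Krt15 (adjusted p = 0.000142). Differentiated-gated cells were mostly suprabasal and superficial in WT and mostly luminal in OVX, so the pooled sums mix layers in different shares.

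With the same gate set against the basal gate in both groups, alternatives chosen after seeing the data, Krt14 kept a lower difference in OVX than in WT. Krt15 did not always keep a higher one. A gate of the same name need not hold the same layer in both groups, least of all the luminal gate, whose marker sums are given further on. In WT libraries 1 and 2, Krt14 was above its basal level only in the suprabasal gate, at 24677 and 19835 CPM, and below it in the superficial gate, at 13272 and 11326, and the luminal gate, at 14990.5 and 14373. In OVX libraries 1 and 2 it was below its basal level in all 3, at 2240 and 1940 in the suprabasal, 1741 and 1313 in the superficial and 1395 and 1481 in the luminal gate. With the luminal gate alone, the log2 difference of Krt14 was -0.22 in WT (edgeR adjusted p = 0.34) and -0.96 in OVX (edgeR adjusted p = 4.78e-19), and OVX minus WT was -0.74 (edgeR adjusted p = 2.15e-07). With the superficial gate alone it was -0.36 in WT (edgeR adjusted p = 0.0104) and -1.14 in OVX (edgeR adjusted p = 2.74e-07), and OVX minus WT was -0.77 (edgeR adjusted p = 0.0404). With the suprabasal gate alone OVX minus WT was -1.65 (edgeR adjusted p = 6.36e-20), from 31 and 26 OVX cells, and there the median of all genes was itself shifted by -0.78.

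For Krt15, OVX minus WT was 1.28 with the suprabasal gate alone (edgeR adjusted p = 2.49e-07), 0.41 with the superficial gate (edgeR adjusted p = 0.435) and -0.07 with the luminal gate (edgeR adjusted p = 0.941). Luminal-gated cells had more Krt15 than basal-gated cells in both groups, by 0.25 in WT (edgeR adjusted p = 0.705) and 0.18 in OVX (edgeR adjusted p = 0.32) on the log2 scale, neither past the test. The opposite signs of Krt15 in the pooled sums were thus not seen with the luminal gate, which held 87 and 74 WT cells.

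Among the epithelial gates, Krt15 was lowest in the suprabasal cells of WT. It was at 247 and 509 CPM in suprabasal-gated cells of WT libraries 1 and 2, against 825 and 874 in the superficial and 1147 and 1758 in the luminal gate. With the suprabasal gate alone as the differentiated cells of WT, an alternative chosen after seeing the data, the Krt15 difference in WT was -1.52 (edgeR adjusted p = 1.85e-14) and that of Krt14 was 0.61 (adjusted p = 4.14e-08). In the luminal gate of OVX libraries 1 and 2, Krt5 was at 1983 and 2865 and Krt15 at 2690 and 1761. The ratio of Krt5 to Krt14 was accordingly 1.42 and 1.93 in luminal-gated and 0.669 and 1.02 in basal-gated OVX cells. The superficial gate of OVX libraries 1 and 2, with 28 and 70 cells, had the ratios 1.94 and 3.03.

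**Figure D2:**
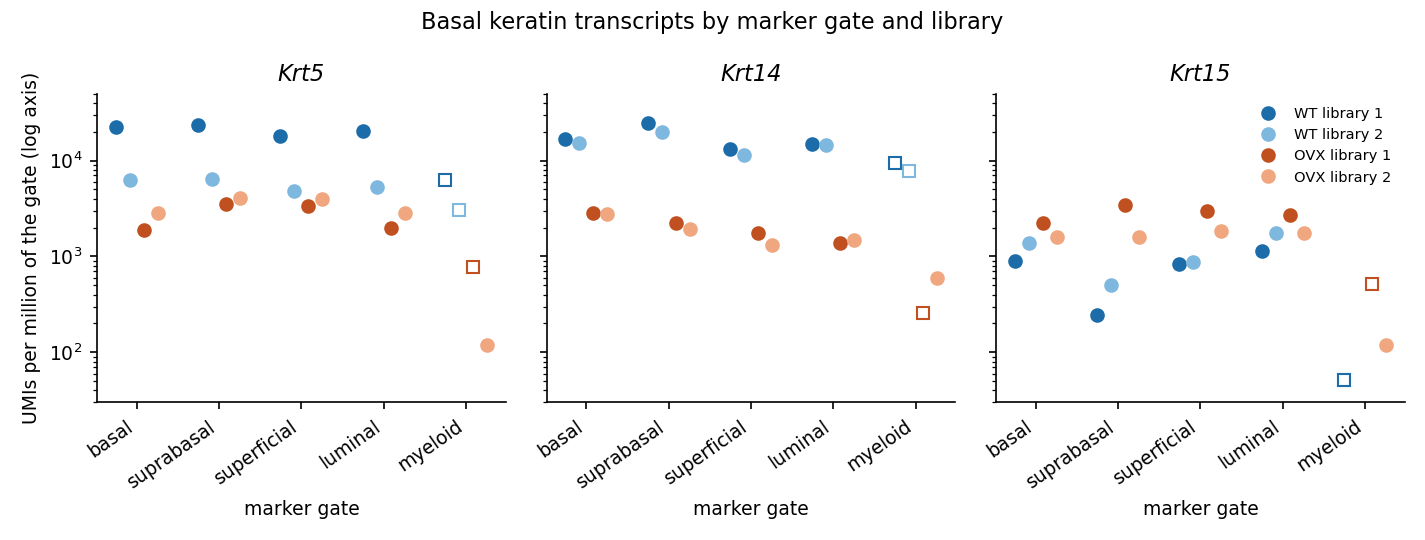
CPM of the gate (log axis) for each gene, marker gate and library, with filled circles for at least 20 cells and open squares for fewer; a value of 0 is not drawn. Krt5 and Krt14 of WT stayed high in each epithelial gate, Krt15 dipped in the suprabasal gate of WT, and among epithelial gates Krt14 was lowest in the superficial and luminal gates of OVX.

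The WT gates were not clean. Luminal-gated cells of WT libraries 1 and 2 held 3211 and 2337 CPM of basal markers, more than their 1807 and 2053 of luminal markers. Those of OVX libraries 1 and 2 held 941 and 1575 of basal and 4880 and 3386 of luminal markers. The luminal gate thus set unlike cells side by side in the 2 groups. In 12 and 7 myeloid-gated cells of WT libraries 1 and 2 Krt14 stood at 9425 and 7739 CPM, with a UMI in 75.0% and 57.1% of cells. In 14 and 20 myeloid-gated cells of OVX libraries 1 and 2 it stood at 258 and 602, with a UMI in 14.3% and 10.0% of cells. Krt5 was at 6216 and 3049 in the WT and at 775 and 120 in the OVX myeloid-gated cells. Krt15 had 1 UMI and 0 UMIs in the WT and 4 and 2 UMIs in the OVX myeloid-gated cells. The median depth of these cells was 1060 and 527 UMIs in WT and 413.5 and 737 in OVX. The part of free RNA and doublets in the epithelial values was not tested, and doublets were not removed. Without the cells of the myeloid and fibroblast gates, the whole-library log2 fold change was -3.06 for Krt14, -2.56 for Krt5 and 1.11 for Krt15. The endothelial, smooth muscle and T cell gates held 0 cells in each library.

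At equal depth, detection of the 3 genes per cell followed the levels. Each cell was thinned to 400 UMIs, which left out 0 and 43 cells of WT libraries 1 and 2 and 650 and 43 of OVX libraries 1 and 2. Krt14 had a UMI in 97.0% and 97.5% of WT cells and in 53.0% and 50.4% of OVX cells. Krt5 had one in 98.6% and 84.1% of WT and in 51.1% and 64.1% of OVX cells. Krt15 had one in 20.2% and 23.9% of WT and in 57.3% and 40.4% of OVX cells. For each gene the groups did not overlap, and the exact two-sided permutation test gave p = 0.333, the smallest that 2 against 2 libraries allow. Unthinned, the shares were 99.5% and 99.1% against 57.8% and 65.8% for Krt14, 99.6% and 93.1% against 55.7% and 79.8% for Krt5, and 41.3% and 36.9% against 58.9% and 58.5% for Krt15.

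The number of molecules per cell set the groups further apart for Krt14. At least 5 Krt14 UMIs in 400 were found in 64.9% and 62.2% of WT cells and in 1.41% and 1.39% of OVX cells. For Krt5 the same count was reached by 81.6% of cells in WT library 1 but by 12.3% in WT library 2, and by 1.52% and 1.72% in OVX. In WT library 2 most cells thus held a Krt5 UMI and few held 5. At least 2 Krt15 UMIs were found in 6.65% and 10.4% of WT cells and in 28.0% and 14.2% of OVX cells. At least 3 were found in 2.79% and 4.99% of WT and in 12.6% and 4.29% of OVX cells. From 3 to 5 UMIs WT library 2 lay above OVX library 2, and at 6 it did not (0.309% against 0.322%).

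**Figure D3:**
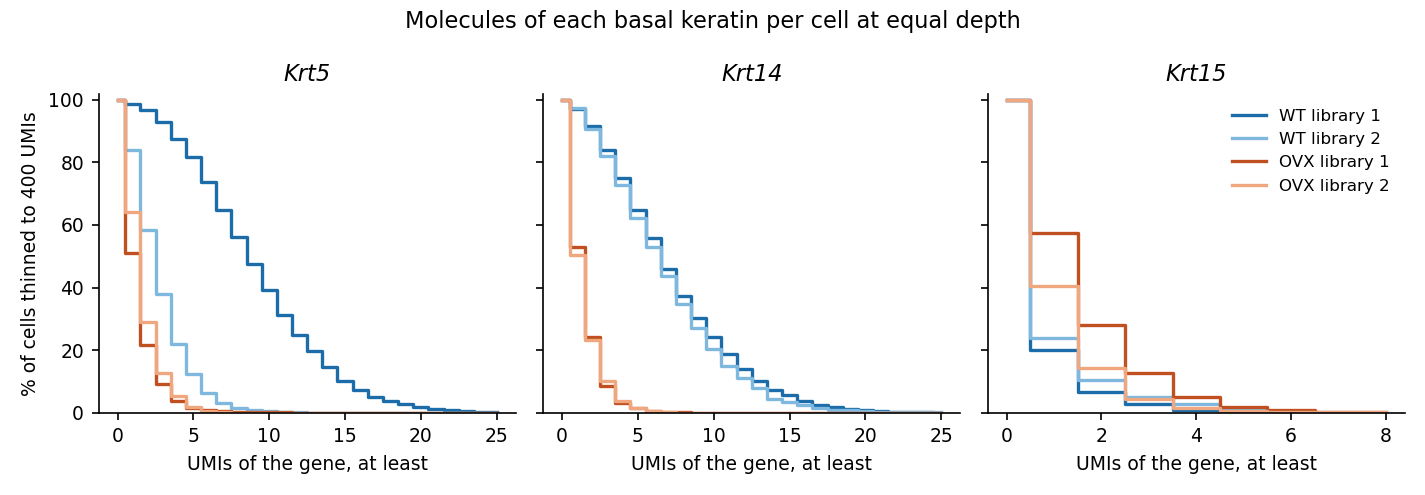
Share of cells thinned to 400 UMIs (y axis, %) with at least the given number of UMIs of each gene (x axis), by library. The Krt14 curves of the 2 WT libraries lie together at 64.9% and 62.2% for 5 UMIs, the Krt5 curves of WT part at 81.6% and 12.3%, and the Krt15 curves of OVX lie above those of WT at 1 and 2 UMIs.

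Most thinned WT cells held UMIs of both Krt5 and Krt14, whereas thinned OVX cells spread over the combinations. Krt5 and Krt14 were both found in 96.1% and 82.5% of thinned WT cells and in 28.9% and 33.3% of thinned OVX cells. The products of the single shares were 95.6% and 81.9% in WT and 27.1% and 32.3% in OVX. Where single shares are as high as in WT, the joint share must lie near the product, so this cannot show whether the genes go together. In OVX libraries 1 and 2 a thinned cell held a mean of 0.895 and 1.14 Krt5 UMIs and 0.915 and 0.899 Krt14 UMIs. With so few UMIs per cell, the combinations in OVX do not show distinct kinds of cells. Krt14 was found in 97.4% and 98.2% of WT cells with Krt5 and in 64.3% and 93.9% of those without. In OVX libraries 1 and 2 it was found in 56.6% and 51.9% of cells with Krt5 and in 49.2% and 47.7% of those without. None of the 3 genes was found in 0.436% and 0.72% of WT cells and in 12.2% and 11.4% of OVX cells. These shares depended on depth. At 800 UMIs the pair was found in 98.9% and 95.7% of WT and in 52.7% and 61.6% of OVX cells. None of the 3 was then found in 0.322% and 0.101% of WT and in 2.99% and 3.41% of OVX cells. With cells of 1 library not being replicates, these shares are a description with no test.

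Cells in which only Krt15 of the 3 genes had a UMI made up 0.0671% and 0.257% of WT and 12.6% and 7.40% of OVX cells. In OVX that share was 16.7% and 9.44% at 250 UMIs and 5.99% and 2.93% at 800, so it fell with depth, and a lack of Krt5 and Krt14 UMIs does not show that a cell lacks them. All 3 genes together were found in 18.7% and 18.2% of WT and in 17.3% and 12.4% of OVX cells. The order of the groups turned between depths, from 12.7% and 9.66% in WT against 6.06% and 4.93% in OVX at 250 UMIs to 30.5% and 30.8% against 39.5% and 37.3% at 800. Cells below a depth were left out, so the cells changed with it. At 800 UMIs 2794 and 991 WT cells and 167 and 820 OVX cells remained, and the part of this selection was not tested. Krt15 was found in 19.5% and 23.5% of WT cells with Krt14 and in 43.3% and 40.8% of the few WT cells without it. In OVX libraries 1 and 2 it was found in 58.7% and 37.8% of cells with Krt14 and in 55.8% and 43.0% of cells without. Among cells with at least 3 UMIs of the 3 genes, most of these UMIs were Krt15 in 0.272% and 2.51% of WT and in 29.4% and 14.2% of OVX cells.

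**Figure D4:**
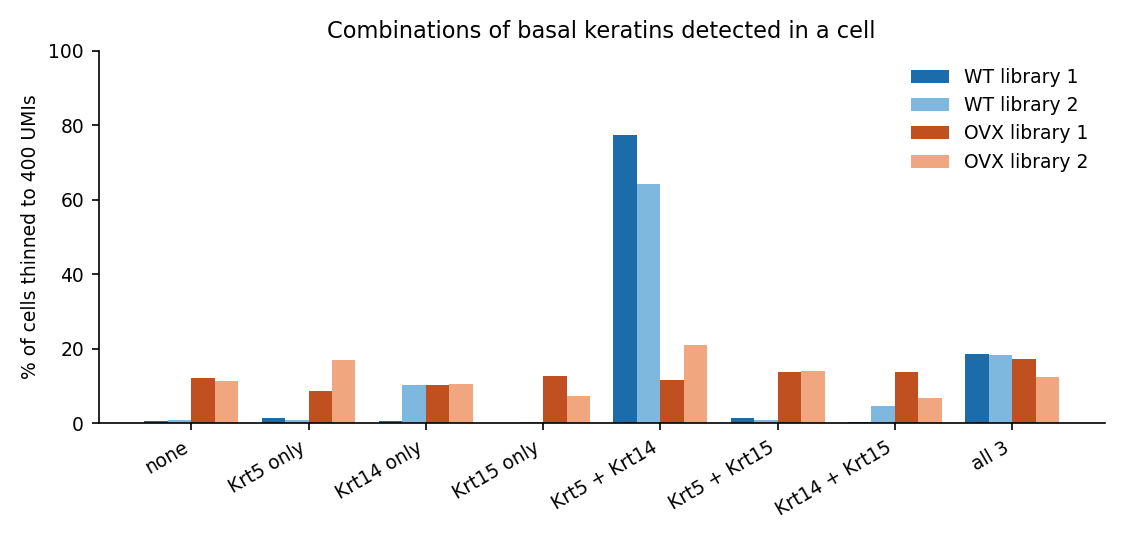
Share of cells thinned to 400 UMIs (y axis, %) with each combination of Krt5, Krt14 and Krt15 (x axis), in the 4 libraries. WT cells fall mainly into Krt5 with Krt14, whereas OVX cells spread over the 8 combinations, with 12.6% and 7.40% with UMIs of Krt15 alone.

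Basal-gated cells of WT also differed by cycling genes. In cells with at least 3 UMIs of a list of 20 cycling genes, Krt15 stood at 1036 and 1611 CPM in WT libraries 1 and 2, against 612 and 953 in cells with 0 such UMIs. Krt14 stood at 14626 and 13438 in the former and 20049 and 18537 in the latter, and Krt5 at 20335 and 5597 against 26194 and 7525. The cells with cycling UMIs were deeper, with medians of 1963 and 1057 UMIs against 1204 and 704.5, and the part of depth was not tested. Only 5 and 26 basal-gated OVX cells had 3 such UMIs, and over whole libraries the cycling list summed to 4117 and 3143 CPM in WT and 388 and 618 in OVX.

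Other keratins changed in both directions. Of 14 listed type I keratins, which include Krt14 and Krt15, 10 passed the filter on low counts. In whole libraries 2 of these rose, 4 fell, Krt14 among them, and 4, Krt15 among them, did not pass the test. The median log2 fold change of the 10 was -2.56, against -0.03 for all genes. Of all genes tested 2.58% rose and 2.52% fell. Krt16, a type I keratin of hyperproliferative epithelium, stood at 3516 and 1059 CPM in WT and at 6.26 and 6.11 in OVX (adjusted p from edgeR = 0.00368). Krt10, the suprabasal type I chain, stood at 1730 and 1611 in WT and at 85.1 and 54.4 in OVX (adjusted p from edgeR = 0.00373). Krt18 and Krt19, the simple type I chains, were at 3.43 and 4.14 and at 2.06 and 6.22 in WT, and at 399 and 308 and at 129 and 76.4 in OVX (adjusted p from edgeR = 0.00263 and 0.00877). Krt13, a suprabasal chain of internal stratified epithelia, was lower without passing, at 1328 and 387 against 155 and 184 (edgeR adjusted p = 0.0664), and Krt17 was at 273 and 354 against 697 and 462 (edgeR adjusted p = 0.373).

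Of 13 listed type II keratins 8 passed the filter, and 1 rose, 5 fell and 2, among them Krt5, did not pass (median -4.13), against 2.58% of all tested genes that rose and 2.52% that fell. Krt6a, a partner of Krt16, stood at 2770 and 2219 CPM in WT and at 67.6 and 50.1 in OVX (adjusted p from edgeR = 0.00365). Krt6b had 1337 and 1328 in WT, 0 UMIs in OVX library 1 and 0.611 CPM in OVX library 2 (edgeR adjusted p = 0.00263). Krt1, the partner of Krt10, stood at 197 and 339 in WT and at 12.5 and 6.72 in OVX (adjusted p from edgeR = 0.00466). Krt8, the simple type II chain, stood at 0.515 and 1.04 in WT and at 106 and 114 in OVX (adjusted p from edgeR = 0.00263). Krt7, also a chain of simple epithelia, was lower in OVX without passing, at 347 and 322 against 235 and 156 (edgeR adjusted p = 0.254). Krt1, Krt4, Krt7, Krt8, Krt10, Krt13, Krt18 and Krt19 serve in the gate lists, so only whole libraries are read for them. In basal-gated cells Krt6a stood at 1566 and 1211 in WT and at 16.6 and 14.6 in OVX (adjusted p from edgeR = 0.000804), and Krt16 at 812 and 242 against 5.52 and 4.39 (edgeR adjusted p = 0.00172).

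**Figure D5:**
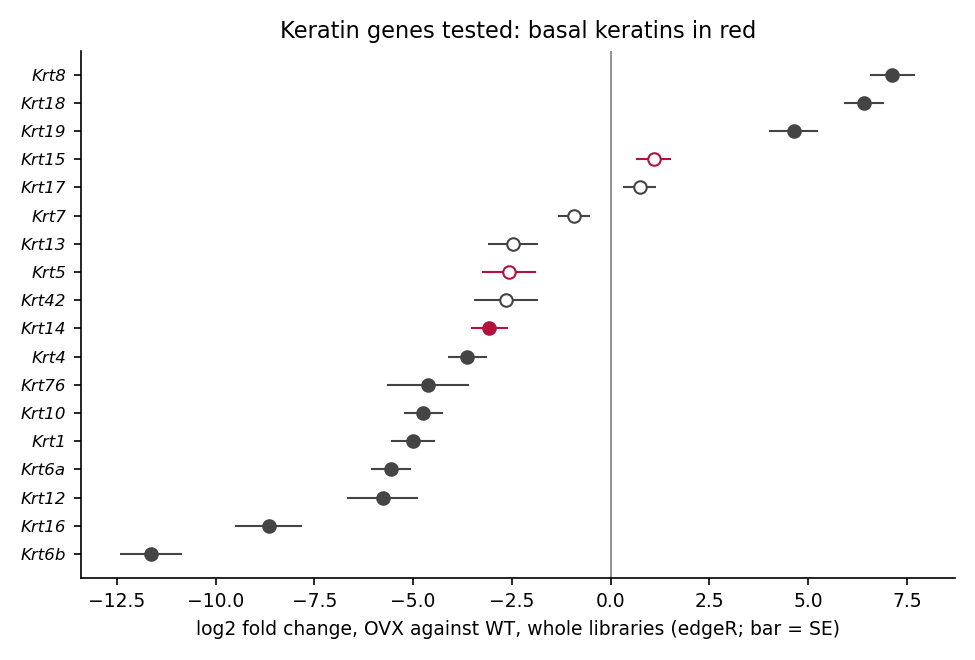
log2 fold change of OVX against WT in whole libraries (x axis, edgeR; bars are SE) for the keratin genes tested, with the 3 basal keratins in red; filled points passed an adjusted p of 0.05. Krt14 at -3.08 and Krt5 at -2.58 lie among the keratins that were lower in OVX, and Krt15 at 1.09 lies between those and the simple keratins Krt8, Krt18 and Krt19.

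The genes that anchor keratin filaments mostly did not pass the test. Of 16 tested anchors and linkers 3 fell and 13 did not pass (median -1.04), where 2.52% of all tested genes fell. Those that fell were the desmosomal cadherins Dsc2 and Dsc3 and the plaque protein Pkp1. Dsc2 stood at 332 and 331 CPM in WT and at 43.8 and 51.3 in OVX (adjusted p from edgeR = 0.0103), Pkp1 at 421 and 391 against 110 and 92.9 (edgeR adjusted p = 0.0251), and Dsc3 at 490 and 491 against 154 and 132 (edgeR adjusted p = 0.035). Jup, the plakoglobin of the same plaque, was lower in both OVX libraries without passing (258 and 510 against 160 and 88.0, edgeR adjusted p = 0.0922), as was Dsp (edgeR adjusted p = 0.179). The hemidesmosomal collagen Col17a1 stood at 1438 and 706 in WT and at 496 and 784 in OVX, and these ranges overlapped.

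Of 16 tested transcription factors and receptors reported to act on basal keratin genes, 1 passed, a share near the 5.11% of all tested genes that passed. Runx1 rose, from 29.2 and 36.3 CPM in WT to 163 and 114 in OVX (adjusted p from edgeR = 0.0363). The retinoic acid receptor Rara (12.2 and 13.0 in WT, 48.8 and 26.3 in OVX, adjusted p from edgeR = 0.134), Grhl3 (18.4 and 19.7, 6.26 and 8.55, edgeR adjusted p = 0.149) and Ets1 (11.7 and 6.22, 15.02 and 36.0, edgeR adjusted p = 0.237) did not pass. Trp63, the master regulator of stratified epithelium, was at 421 and 321 in WT and at 247 and 193 in OVX (adjusted p from edgeR = 0.263). Of 4 tested steroid receptors 1 passed, against 5.11% of all tested genes. Pgr, a known oestrogen target, fell from 149 and 96.9 in WT to 18.8 and 20.2 CPM (edgeR adjusted p = 0.014). The oestrogen receptor Esr1 stood at 113 and 81.3 in WT and at 146 and 196 in OVX (adjusted p from edgeR = 0.403), and the glucocorticoid receptor Nr3c1 at 128 and 47.7 against 135 and 154 (edgeR adjusted p = 0.591).

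Over the 16 sums of library and epithelial gate, the genes most like each basal keratin were ranked by Pearson's r of log2(CPM + 10) among 3609 genes with a mean of at least 50. The sums share libraries, depth and the group contrast, so r describes these 16 points alone. Krt14 was nearest to Serpinb5 (r = 0.97), Mt2 (0.97), Csta1 (0.97), Pkm (0.97) and Igfbp2 (0.96). Krt5 was nearest to Strap (0.94), Sdc1 (0.93), Klc1 (0.93), Mki67 (0.91) and Tuba1c (0.91), which like Krt5 were highest in WT library 1. Krt15 was nearest to Glul (0.89), Tmem176a (0.89), Ly6e (0.88), Aldh3a1 (0.87) and Itm2c (0.86). Among themselves, Krt5 and Krt14 had r = 0.79, Krt5 and Krt15 -0.73, and Krt14 and Krt15 -0.78.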

How the data were processed

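The authors' deposited tables, 1 for each library, give UMI counts for every gene in every barcode as whole numbers that were not normalized. The submitters' processing notes name mm10 and Seurat 2, while the aligner, annotation and barcode selection were not given in the sources used here. Counts were summed over kept cells per library, or per library and gate, and tested with edgeR 4.0.16 in R 4.3.3 (TMM, filterByExpr, quasi-likelihood F-test, Benjamini-Hochberg over all genes tested, threshold 0.05), and with DESeq2 1.42.0 as an alternative. SEs are the fold change divided by the root of F. CPM use all UMIs of the library or gate, without TMM. The fits were also run on simulated counts, drawn for every library from a common profile with a fixed dispersion. That setting lacks the differences between libraries seen here, so it does not show how the fits fare on these data. Depth was 798916 to 5830417 UMIs per library. Shares were computed after thinning each cell to 400 UMIs (seed 1). Positions, coding sequences and shared words are from GENCODE vM21 (GRCm38), which may differ from the annotation used for counting. The likeness lists, and from each gene list the 4 smallest p-values in whole libraries and any gene above 1000 CPM in a group, set which other genes are named; Trp63, Dst, Krt7, Krt13, Krt17 and the gate values were added after their values were seen, and 1 gene that the rule names is not reported here. The 3 genes, lists and gates were chosen with earlier results of these data known.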

Additional observations from a re-analysis of the deposited data

Results flagged for a closer look

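The difference between differentiated-gated and basal-gated cells was not the same in the 2 groups for Krt14 and Krt15 by a test of the difference itself. For Krt14 in pooled differentiated-gated cells, OVX minus WT was -1.19 on the log2 scale (edgeR adjusted p = 1.06e-34), with the gate difference positive in 2 of 2 WT and negative in 2 of 2 OVX libraries. For Krt15 it was 1.02 (edgeR adjusted p = 2.78e-16), with the gate difference negative in 2 of 2 WT and positive in 2 of 2 OVX libraries. Over all 18 alternatives the values for Krt14 ran from -1.65 to -0.74, with edgeR or DESeq2 adjusted p up to 0.0404. Those for Krt15 ran from -0.07 to 1.71, without a call with the superficial gate alone in both groups (0.41, edgeR adjusted p = 0.435) and turned, without a call, with the luminal gate alone (-0.07, edgeR adjusted p = 0.941). The pooled cells were of different layers in the 2 groups, and the p-values rest on dispersion borrowed across genes.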

How the results depend on the processing

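The precision is limited by 2 libraries per group, by 435 UMIs per cell in OVX library 1 and by loose gates in WT. Krt14 in whole libraries kept its direction and call under all 13 alternatives (-3.21 to -2.93), and Krt15 in basal-gated cells stayed without a call under all 16 (0.41 to 1.06).

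In whole libraries, Krt5 passed with DESeq2 (-2.70), with no filter on low counts (-2.77) and on leaving out 3 of the 4 libraries (-3.29 to -1.31 over the 4), but not without OVX library 1. In basal-gated cells, Krt5 did not pass with every barcode (-2.59), with the list of most UMIs as the gate (-2.57) or on leaving out 3 of the 4 libraries (-3.33 to -1.44 over the 4), and Krt14 did not on leaving out either OVX library (-2.68 to -2.48 over the 4).

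Numbers 1 and 2 of the titles do not tie libraries across groups by any label, and same-numbered libraries deviated in opposite directions (r = -0.63 over 11495 genes). With the replicate block Krt5 was at -2.32 in whole libraries (called) and at -2.36 in basal-gated cells (not called), and the count of called genes was 517 in place of 587 and 235 in place of 312; it changed no other call of the 3 genes. Gate effects already carry the library as a block. The crossed pairing as a block, chosen after seeing the data, called 3489 and 1753 genes, and in whole libraries it called Krt5 (-2.32) and Krt15 (1.08).

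Between gates in OVX, Krt5 did not pass with DESeq2 (0.22), every barcode (0.18), or at least 500 UMIs and at most 10% mitochondrial (0.24). Nor did it without mitochondrial and Malat1 UMIs (0.19) or with a gate minimum of 3 (0.20) or 1 (0.18). It also did not pass with the suprabasal gate alone in WT and the luminal gate alone in OVX (0.0429, chosen after seeing the data). Single libraries left out gave no call either (0.12 to 0.32). Krt15 in OVX did not pass under the same settings in the same order (0.25, 0.22, 0.19, 0.22, 0.21, 0.19, 0.20 and 0.13 to 0.35), nor with library totals (0.22), no filter (0.24), most UMIs (0.27) or the basal gate without Trp63 and Dst (0.20). Krt5 in WT turned negative, without a call, with library totals (-0.0701), without Trp63 and Dst (-0.10) and without WT library 2 (-0.0060; 0.0939 without WT library 1). The OVX minus WT difference of Krt5 passed without Trp63 and Dst (0.40). It turned to -0.16 with the suprabasal gate alone in WT and the luminal gate alone in OVX. Krt14 in WT ran from 0.27 to 0.37 with single libraries left out, which for the group left with 1 library assumes that this library varies like the others and was added after seeing the data.

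With a single gate in both groups, also chosen after seeing the data, the suprabasal gate gave Krt5 0.0672 in OVX and -0.13 for the difference, and Krt15 -0.24 in OVX (none called). The superficial gate gave Krt5 -0.32 and Krt14 -0.36 in WT (both called), Krt5 0.43 and Krt15 0.0917 in OVX (not called), and differences of 0.75 for Krt5 (called) and 0.41 for Krt15 (not called). The luminal gate gave Krt5 -0.26, Krt14 -0.22 and Krt15 0.25 in WT, Krt5 0.0248 and Krt15 0.18 in OVX, and a difference of -0.0665 for Krt15 (none called).

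The difference between groups in the share of cells with Krt5 and Krt14 together was -58.2 percentage points, and -40.1 at 800 UMIs. That of cells with none of the 3 was 11.2, against 22.4 at 250 UMIs, 2.99 at 800, 8.18 unthinned and 9.29 in basal-gated cells. That of cells with Krt14 and Krt15 had no stable direction: 4.17, against -1.97 at 250 UMIs, 14.2 at 800, -1.20 unthinned and -1.85 to 10.2 with single libraries left out.

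Called genes numbered 587 in whole libraries, with 1356 without a filter and 308 to 1884 without single libraries, and 312 in basal-gated cells, with 515 without a filter, 166 with at least 500 UMIs and 64 to 954 without single libraries. Between gates, DESeq2 called 155 genes in place of 1424 in WT, 139 in place of 583 in OVX and 22 in place of 225 for the difference. Library totals shifted the median of all genes from -0.03 to 0.11 in whole libraries, and the share of calls that were higher was 50.6%, 38.5% with DESeq2, and between WT gates 48.9%, 30.8% with library totals. The causes were not tested.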

Other observations

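Among cells outside every gate, those of WT library 2 had a high level of Krt15. In the 257 ungated cells of WT library 2 it stood at 2591 CPM (UMIs per 1000000), above each gate of that library, and in the 44 ungated cells of WT library 1 at 595. Krt14 stood at 10107 and Krt5 at 3661 in these cells of WT library 2, below its 4 epithelial gates. In the 928 and 578 ungated cells of OVX libraries 1 and 2, Krt15 stood at 2646 and 1481 and Krt14 at 2417 and 2319. Krt5 stood at 2144 and 3157 there. These values were close to those of the whole libraries, of which the ungated cells made up 59.0% and 30.3%. The 1427 barcodes of OVX library 1 that did not pass the filter held Krt5 at 1894, Krt14 at 1977 and Krt15 at 1883 CPM.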
